A study of Mus musculus with 5 samples.

Results

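Interferon-induced genes were followed in natural killer (NK) cells sorted from mouse spleens, with and without the transcription factor gene Myc. The set holds 36 genes, chosen by symbol as well-known targets of interferon, and all 36 were among the 13004 genes of the deposited table. RNA was sequenced from live cells sorted as CD3-negative, NK1.1-positive and DX5-positive from 8-week C57BL/6 mice. The MycKO group had 2 libraries (replicates 5 and 6) of genotype Mycdelta/delta/Ncr1Cre, in which Cre recombinase under the control of Ncr1 deletes Myc in cells that express this NK receptor gene. The control group had 3 libraries (replicates 1, 2 and 3) of genotype Mycf/f, with loxP-flanked Myc alleles and no Cre named in the label, so that effects of Cre and of Myc deletion cannot be told apart. Nothing in the labels says that the libraries of a group came from separate mice. The p-values therefore measure only how far these samples spread, and that spread may be technical.

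Interferons are secreted proteins that warn cells of infection. Type I interferon acts through the receptor chains Ifnar1 and Ifnar2 and a complex that includes STAT2 and IRF9, which binds the interferon-stimulated response element (ISRE) upstream of antiviral genes. Interferon-gamma, which NK cells themselves secrete, acts through Ifngr1 and Ifngr2 on genes that carry the gamma-activated site (GAS). The members were divided by the interferon known to lead their induction. A type I-led group held 28 genes, and an interferon-gamma-led group held 7 genes of the guanylate-binding protein (GBP) and immunity-related GTPase (IRG) families. Irf1, which encodes a transcription factor induced through GAS, was kept apart.

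The stretches of 150 bases directly upstream of the gene start are shown for 6 members, because both pathways are known to act through ISRE and GAS letters such as those marked here. They are taken from both groups and Irf1. They come from RefSeq on GRCm38.p6, the assembly of mm10, and run 5′ to 3′ on the strand of the gene. Capitals mark matches to the ISRE core (GAAA, any 2 bases and a further GAAA, on either strand, so that it can also read as TTTC, any 2 bases and TTTC) and to the GAS letters TTCNNNGAA, which read the same on both strands, and neighbouring matches merge into 1 run.
Isg15, chr4:156200819-156200968, minus strand: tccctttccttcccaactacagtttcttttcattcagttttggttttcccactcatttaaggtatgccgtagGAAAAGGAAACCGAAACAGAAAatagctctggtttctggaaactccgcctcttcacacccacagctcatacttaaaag
Rsad2, chr12:26456453-26456602, minus strand: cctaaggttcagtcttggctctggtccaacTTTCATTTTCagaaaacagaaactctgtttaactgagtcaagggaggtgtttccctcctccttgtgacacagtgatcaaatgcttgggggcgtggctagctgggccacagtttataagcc
Bst2, chr8:71537473-71537622, minus strand: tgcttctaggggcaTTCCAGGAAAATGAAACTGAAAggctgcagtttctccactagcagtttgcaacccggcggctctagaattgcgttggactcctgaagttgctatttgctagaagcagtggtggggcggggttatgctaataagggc
Trim30a, chr7:104465194-104465343, minus strand: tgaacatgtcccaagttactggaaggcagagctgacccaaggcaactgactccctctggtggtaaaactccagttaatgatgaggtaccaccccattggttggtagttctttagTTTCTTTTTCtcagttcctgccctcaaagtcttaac
Igtp, chr11:58199406-58199555, plus strand: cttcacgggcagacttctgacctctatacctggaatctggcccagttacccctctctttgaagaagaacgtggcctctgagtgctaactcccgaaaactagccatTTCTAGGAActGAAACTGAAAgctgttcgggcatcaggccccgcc
Irf1, chr11:53769864-53770013, plus strand: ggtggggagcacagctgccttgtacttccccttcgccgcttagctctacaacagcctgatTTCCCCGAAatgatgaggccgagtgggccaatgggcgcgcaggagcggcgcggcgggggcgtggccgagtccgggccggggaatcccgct
Isg15 had 3 overlapping ISRE matches, which start 78, 72 and 66 bases upstream. Bst2 had 2 overlapping ISRE matches, at 130 and 124 bases, the first of them overlapping a GAS match at 136 bases. Igtp had a GAS match at 45 bases and an ISRE match at 34 bases, and Irf1 had a GAS match at 90 bases and no ISRE letters in this window. A promoter window was found for 26 of the 36 members. Within 250 bases upstream, 14 of these 26 members (53.8%) held the ISRE letters, against 3.54% of the 9021 tested genes with a window. These were 9 of 20 type I-led and 5 of 5 interferon-gamma-led members with a window, so the letters alone did not divide the groups. The GAS letters were found in 8 of 26 members (30.8%), against 7.43% of tested genes. Such a match is a description of sequence and not a site of binding.

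The libraries held 5451728 and 13337084 reads in listed genes for MycKO 5 and 6, against 14290690 to 17610826 for the controls, so counting error was larger in MycKO 5. Levels are RPKM, reads scaled to transcript length and to the depth of the library. Myc was at 12.5 and 8.70 RPKM in MycKO 5 and 6, against 13.0, 23.0 and 21.2 RPKM in controls 1, 2 and 3 (log2 fold change -0.77, limma adjusted p = 0.297), a value that covers the whole gene and cannot show how complete the deletion was. NK cell markers were present in every library, with 12 of 12 listed genes summing to 11880 and 13780 RPKM in MycKO, against 14650 to 17160 RPKM in controls. Gzma was the largest part of these sums, at 4699 and 5620 RPKM in MycKO 5 and 6, against 7251, 6894 and 6584 RPKM in controls 1, 2 and 3. Of the 12 genes, 7 were below all controls in both MycKO libraries, against 10.4% of all genes, and 5 overlapped. Both MycKO libraries also held more RNA of markers of other cell types of the spleen. Those of macrophages, monocytes and neutrophils (13 of 13 genes) summed to 2034 and 1393 RPKM in MycKO 5 and 6, against 312.8, 464.1 and 251.3 RPKM in controls 1, 2 and 3. Conventional dendritic cell markers (8 of 8 genes) summed to 1425 and 919.9 RPKM, against 483.4, 617.6 and 448.4 RPKM. Most of this sum came from Cd74, H2-Aa, H2-Ab1 and Itgax, at 510.9, 389.8, 270.2 and 234.7 RPKM in MycKO 5. Of the 8 genes, 6 were above all controls in both MycKO libraries, against 18.8% of all genes, and Itgax and Zbtb46 overlapped. Xcr1 reached 1 RPKM in MycKO libraries only, so the filter on low values given below fixed its direction. Zbtb46 was at 2.13 and 1.47 RPKM, against 2.29, 1.82 and 1.08 RPKM. Plasmacytoid dendritic cell markers (9 of 9 genes) summed to 97.0 and 70.7 RPKM, against 44.0, 43.1 and 39.5 RPKM, and their defining member Siglech was at 0 in control 3. T cell markers (10 of 11 genes) summed to 139.7 and 206.8 RPKM, against 49.8, 56.2 and 36.2 RPKM. Among them Cd5 and Lef1 overlapped, with Lef1 at 14.8 and 23.1 RPKM, against 23.8, 21.2 and 20.5 RPKM. B and plasma cell markers (8 of 10 genes) summed to 391.6 and 744.9 RPKM, against 179.1, 122.5 and 130.9 RPKM. Jchain held 232.3 and 580.1 RPKM of this sum in MycKO, and Pax5 overlapped. Red cell and platelet markers (7 of 11 genes) summed to 392.8 and 221.0 RPKM, against 95.6, 138.6 and 84.4 RPKM. Car2, Ppbp and Pf4 overlapped, with Car2 at 182.1 and 125.6 RPKM, against 90.1, 129.0 and 79.7 RPKM. Many of these cells express interferon-induced genes, Bst2 and Irf7 above all in plasmacytoid dendritic cells. Their part in the values below was not tested, and in bulk RNA fewer cells of a type and less RNA per cell cannot be told apart.

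None of the 36 members passed the test between MycKO and control NK cells, a count near the share of all genes that did. All 36 members passed the filter on low values (at least 1 RPKM in at least 2 libraries), Ifi44 through its MycKO libraries only. With limma on log2(RPKM + 1) and Benjamini-Hochberg adjustment over 11190 genes, 0 of 36 had an adjusted p under 0.05, beside 1.34% of all genes tested (1.24% higher and 0.0983% lower in MycKO). An unadjusted p under 0.05 was found for 4 members, Usp18, Bst2, Rsad2 and Igtp, all higher in MycKO, where the share over all genes was 13.2%. Limma-voom on the reads called 0 members (2.07% of all genes), and the authors' deposited table called 0 (3.4% of all genes) and had 3 members with an unadjusted p under 0.05 (11.1% of all genes). The fold change was above 0 for 31 members and below 0 for 5, and was above 0 for 57.1% of all genes. Both MycKO libraries lay above all 3 controls for 7 members, against 18.8% of all genes, and below all of them for 0 members, against 10.4%. The 31 and the 7 include Ifi44, whose direction was fixed by the way it passed the filter. The 95% confidence interval lay between -1 and 1 on the log2 scale for 21 members and reached past 1 for 15, so a change of 1 lay inside the interval of those 15 genes.

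**Figure D1:**
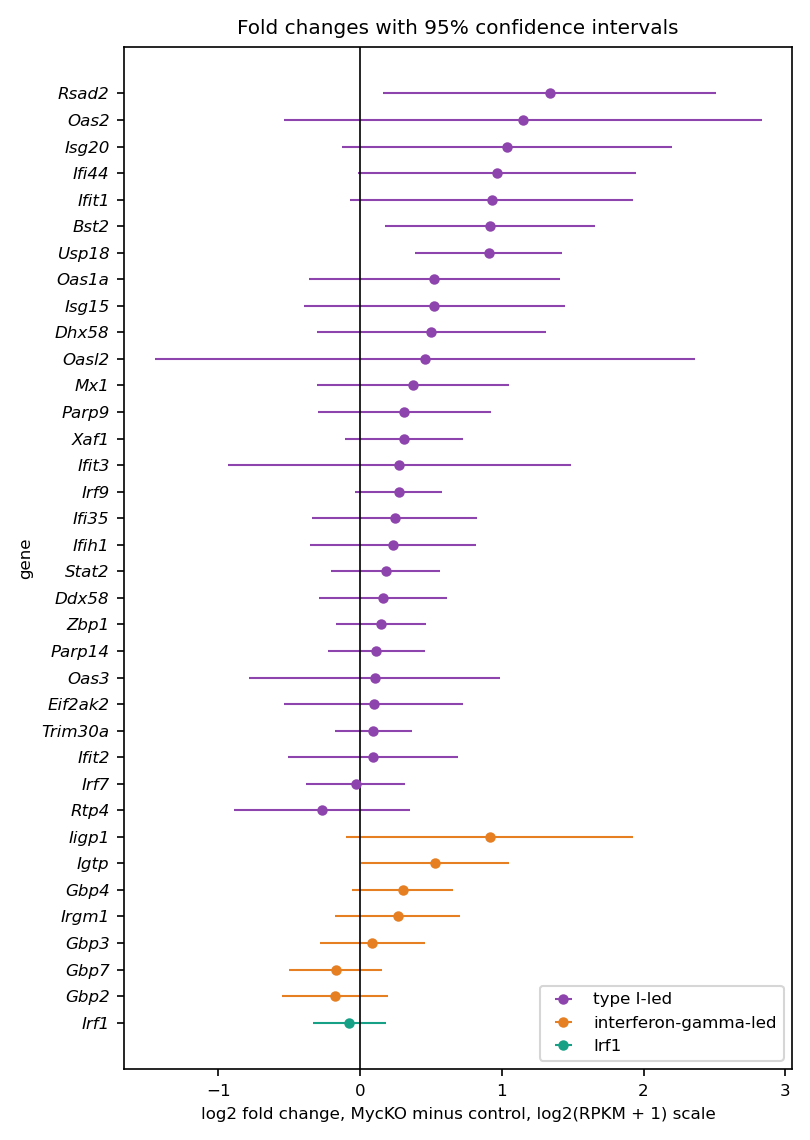
Log2 fold change, MycKO minus control, on the log2(RPKM + 1) scale for the 36 members with 95% confidence intervals of limma (2 MycKO and 3 control libraries), by group of members. The intervals of 4 members lie above 0 before adjustment, and those of Oas2 and Oasl2 are the widest.

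Isg15 and Usp18 form an antagonistic pair. Isg15 encodes a ubiquitin-like protein that is coupled to other proteins, and Usp18 encodes the protease that removes it and also damps signalling at the type I interferon receptor. Usp18 (Entrez 24110; mm10 chromosome 6, 121245906 to 121270917, plus strand) was at 15.1 and 11.4 RPKM in MycKO 5 and 6, against 7.09, 6.22 and 6.36 RPKM in controls 1, 2 and 3. Both MycKO libraries lay above all controls, and the controls lay close together. The means were 13.3 ± 2.6 RPKM (SD, n = 2) in MycKO and 6.55 ± 0.467 RPKM (SD, n = 3) in controls, with a log2 fold change of 0.91 (SE 0.22, 95% interval 0.39 to 1.42) and a limma adjusted p of 0.118. This was the smallest adjusted p among the members, and over 13 alternatives it did not go below 0.0981, reached without a trend in the variance. Isg15 (chromosome 4, 156199424 to 156200818, minus strand) was at 26.9 and 15.4 RPKM in MycKO 5 and 6, against 8.61, 23.0 and 13.2 RPKM in controls 1, 2 and 3. MycKO 5 and control 2 were high and the groups overlapped (log2 fold change 0.52, adjusted p = 0.687). The fold change of Isg15 was 0.14 without MycKO 5, 0.21 without control 1, 0.87 without control 2 and 0.91 without MycKO 6.

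**Figure D2:**
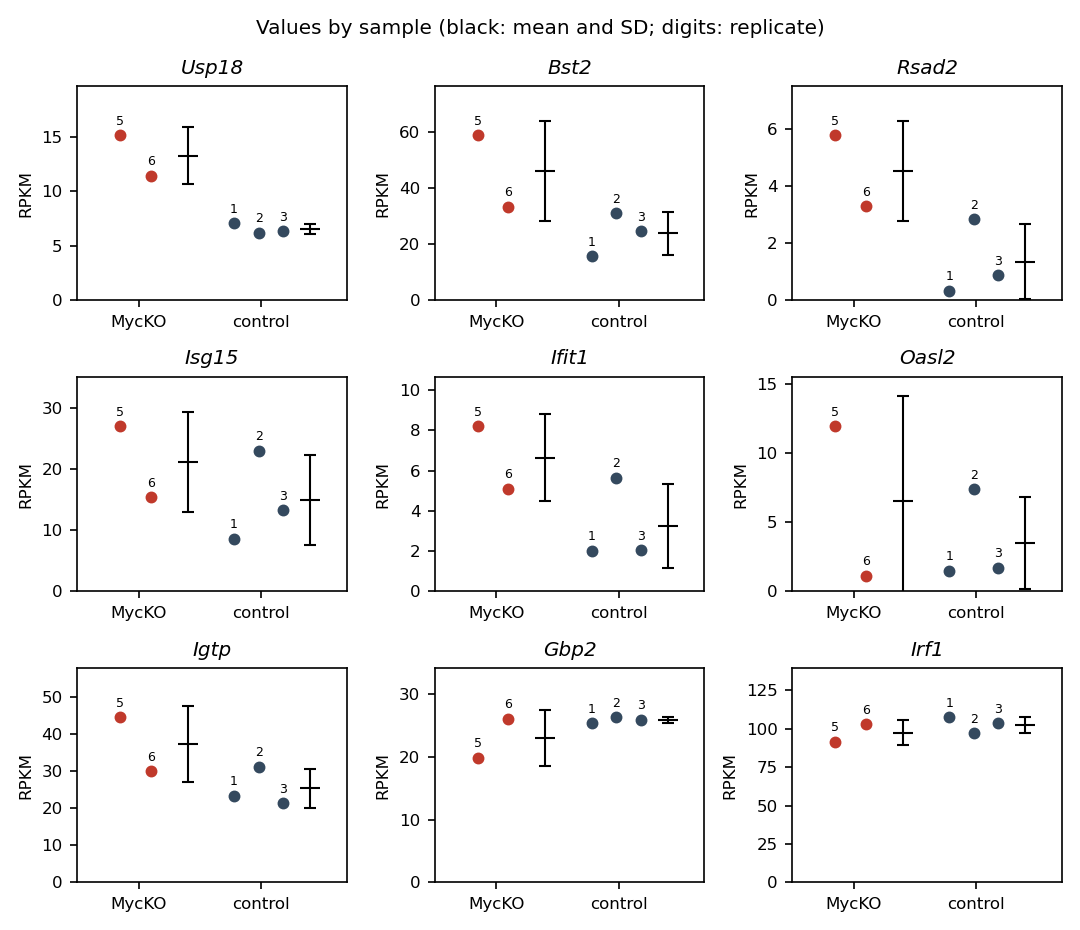
RPKM of 9 members by sample, MycKO (red, replicates 5 and 6) left of control (dark, replicates 1 to 3), with the mean and SD of each group in black (the axis starts at 0 and cuts the lower bar of Oasl2 in MycKO). Usp18 separates the groups, as do Bst2 and Rsad2 by narrow margins. Isg15, Ifit1 and Oasl2 are high in MycKO 5 and control 2, and Irf1 lies within a narrow range.

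The IFIT proteins bind foreign RNA and block its translation. Ifit1 was at 8.198 and 5.11 RPKM in MycKO 5 and 6, against 2.01, 5.66 and 2.04 RPKM in controls 1, 2 and 3 (log2 fold change 0.93, adjusted p = 0.417). Ifit3 was at 7.34 and 3.53 RPKM in MycKO, against 2.29, 8.92 and 2.98 RPKM in controls (0.28, adjusted p = 0.911). In both, control 2 exceeded MycKO 6 and stood well above controls 1 and 3. Ifit2, the most abundant of them, was at 21.2 and 14.0 RPKM in MycKO, against 12.2, 18.8 and 18.3 RPKM in controls, with a log2 fold change of 0.09 that turned to -0.19 without MycKO 5. All 3 IFIT genes had MycKO 5 and control 2 as their highest libraries.

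The OAS proteins sense double-stranded RNA and most of them make the messenger that activates RNase L. Oasl2 was at 11.9 and 1.15 RPKM in MycKO 5 and 6, against 1.48, 7.37 and 1.72 RPKM in controls 1, 2 and 3. MycKO 6 was the lowest library and MycKO 5 the highest, so the spread crossed the genotypes. These values rested on 204 and 48 reads in MycKO, against 70, 407 and 77 reads in controls. The exact Poisson 95% interval, which covers counting error only, was 10.3 to 13.7 RPKM in MycKO 5 and 0.846 to 1.52 RPKM in MycKO 6. Oas2 was at 6.30 and 0.417 RPKM in MycKO, against 0.336, 1.28 and 0 RPKM in controls, where control 3 had 0 reads and 3 reads would be 0.053 RPKM. Its log2 fold change of 1.15 (adjusted p = 0.603) rested on MycKO 5, without which it was -0.032, and was 2.22 at a pseudocount of 0.1, 2.21 in limma-voom and 2.57 in the authors' deposited table. Oas1a was at 10.1 and 6.79 RPKM in MycKO, against 4.19, 9.38 and 4.001 RPKM in controls, and Oas3 was at 4.93 and 2.22 RPKM, against 2.76, 4.26 and 2.402 RPKM. Again MycKO 5 and control 2 were the highest libraries for all 4 OAS genes. Reads of 51 bases may be shared between near-identical members of the OAS, IFIT, GBP and IRG families, which makes the division between relatives uncertain.

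Among the other antiviral effectors, Rsad2 and Bst2 had unadjusted p-values under 0.05. Rsad2 (chromosome 12, 26442746 to 26456452, minus strand), which encodes viperin, an enzyme that makes a chain-terminating nucleotide, was at 5.76 and 3.29 RPKM in MycKO 5 and 6, against 0.333, 2.84 and 0.887 RPKM in controls 1, 2 and 3. Both MycKO libraries were higher than every control, with control 2 close below MycKO 6, and the fold change was 1.34 (SE 0.50, 95% interval 0.16 to 2.51, adjusted p = 0.315), or 2.05 at a pseudocount of 0.1. Bst2 (chromosome 8, 71534255 to 71537456, minus strand), which encodes tetherin, a membrane protein that holds budding virus on the cell, was at 58.6 and 33.4 RPKM in MycKO, against 15.8, 31.0 and 24.7 RPKM in controls. The groups did not overlap, by a margin of 33.4 RPKM in MycKO 6 to 31.0 RPKM in control 2, and the fold change was 0.92 (SE 0.32, adjusted p = 0.268). Without MycKO 5 the fold change of Bst2 was 0.52. The plasmacytoid dendritic cell marker Siglech stood at 7.90 and 6.52 RPKM in MycKO 5 and 6, against 2.30, 0.023 and 0 RPKM in controls. Among the controls, Siglech was highest in control 1, where Bst2 was lowest. Both MycKO libraries lay above all controls for 6 of the 8 tested markers of these cells, against 18.8% of all genes. These include Klk1 and Pacsin1, which reached 1 RPKM in MycKO libraries only, so that the filter fixed their direction. Cox6a2 overlapped, at 10.3 and 7.39 RPKM in MycKO, against 2.52, 11.2 and 2.65 RPKM in controls. Tcf4 overlapped as well, at 15.3 and 13.3 RPKM in MycKO, against 14.1, 9.60 and 10.7 RPKM in controls. The part of these cells in the value of Bst2 was not tested.

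Isg20, which encodes a nuclease for RNA, was at 5.55 and 1.96 RPKM in MycKO 5 and 6, against 0.762, 2.42 and 0.642 RPKM in controls 1, 2 and 3, with MycKO 5 and control 2 highest as for Isg15. Ifi44 was the least abundant member, at 1.83 and 1.55 RPKM (29 and 60 reads) in MycKO, against 0, 0.41 and 0.842 RPKM (0, 21 and 35 reads) in controls, and the groups did not overlap. Its fold change was 0.96 (adjusted p = 0.388), and since it entered the test through the MycKO libraries it had to be higher there. With control 1 at 0, its value turned on the treatment of low counts, with 2.29 at a pseudocount of 0.1, 3.32 in limma-voom and 1.95 in the authors' deposited table. Xaf1, which encodes an antagonist of an inhibitor of apoptosis, was at 15.2 and 13.8 RPKM in MycKO, against 11.5, 10.8 and 12.4 RPKM in controls, also without overlap (0.31, adjusted p = 0.559). Mx1, a dynamin-like GTPase gene that in C57BL/6 mice is known to carry a deletion that abolishes its antiviral function, was at 5.41 and 8.30 RPKM in MycKO, against 4.11, 6.13 and 4.79 RPKM in controls. It was the only type I-led member with a higher value in MycKO 6 than in MycKO 5.

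The remaining effectors had fold changes between -0.27 and 0.31. Trim30a (chromosome 7, 104409025 to 104465193, minus strand), a regulator of Toll-like receptor signalling, was the most abundant type I-led member, at 65.6 and 58.3 RPKM in MycKO 5 and 6, against 56.9, 56.1 and 60.8 RPKM in controls 1, 2 and 3. Its 95% interval ran from -0.18 to 0.37. Zbp1, a sensor of Z-form nucleic acid that triggers necroptosis, was at 39.2 and 36.8 RPKM in MycKO, against 36.9, 35.3 and 30.6 RPKM in controls. Parp14 and Parp9 encode members of the ADP-ribosyltransferase family, with Parp14 at 28.0 and 27.0 RPKM, against 22.7, 25.7 and 27.7 RPKM, and Parp9 at 23.3 and 22.9 RPKM, against 25.6, 13.0 and 18.6 RPKM. Eif2ak2, which encodes the RNA-activated kinase PKR that stops translation, was at 21.8 and 12.3 RPKM in MycKO, against 14.3, 18.9 and 13.2 RPKM in controls, with MycKO 5 and control 2 again highest. Rtp4 had the most negative fold change of the set, -0.27 (adjusted p = 0.786), with 18.6 and 10.3 RPKM in MycKO and 14.1, 19.2 and 18.1 RPKM in controls. It turned to 0.13 without MycKO 6. Ifi35 was at 45.1 and 44.7 RPKM in MycKO, against 41.5, 49.5 and 26.0 RPKM in controls.

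The cytosolic RNA sensors, which start type I interferon production and are themselves induced by it, had intervals that spanned 0. Ddx58, which encodes RIG-I, was at 42.7 and 29.1 RPKM in MycKO 5 and 6, against 27.7, 35.2 and 31.9 RPKM in controls 1, 2 and 3. Ifih1, which encodes MDA5, was at 7.84 and 6.27 RPKM in MycKO, against 6.87, 5.64 and 5.08 RPKM in controls. Dhx58, which encodes their regulator LGP2, was at 13.5 and 9.72 RPKM in MycKO, against 4.79, 8.38 and 11.5 RPKM in controls. The largest fold change of the 3 was that of Dhx58, at 0.50 (adjusted p = 0.648).

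The transcription factors of the pathway are themselves encoded by interferon-induced genes. Irf9, the DNA-binding part of the type I complex, was at 38.8 and 36.4 RPKM in MycKO 5 and 6, against 28.7, 31.9 and 32.4 RPKM in controls 1, 2 and 3, with no overlap and a fold change of 0.27 (adjusted p = 0.44). Stat2, its partner, was at 17.2 and 15.6 RPKM in MycKO, against 14.9, 13.7 and 14.5 RPKM in controls, also with no overlap (0.18, adjusted p = 0.749). Irf7, which amplifies the type I response, was at 55.4 and 42.6 RPKM in MycKO, against 48.5, 46.8 and 53.9 RPKM in controls, so that MycKO 5 was the highest library and MycKO 6 the lowest. Irf1 (Entrez 16362; chromosome 11, 53770014 to 53778374, plus strand) was the most abundant member, above 94.5% of the tested genes in level. It was at 91.7 and 103.1 RPKM in MycKO, against 107.4, 97.0 and 103.7 RPKM in controls, with a fold change of -0.08 (SE 0.11, 95% interval -0.33 to 0.18, adjusted p = 0.868).

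Genes of the GTPases that attack the vacuoles of intracellular parasites and bacteria make up the interferon-gamma-led group. The GBP genes had fold changes of both signs. Gbp4 (chromosome 5, 105115767 to 105139586, minus strand) was at 44.8 and 56.9 RPKM in MycKO 5 and 6, against 37.2, 40.04 and 45.6 RPKM in controls 1, 2 and 3 (0.30, SE 0.15, adjusted p = 0.485). Gbp2 was at 19.9 and 26.1 RPKM in MycKO, against 25.4, 26.3 and 25.9 RPKM in controls, so that MycKO 5 stood below the other libraries. Gbp7 was at 35.0 and 39.0 RPKM in MycKO, against 38.5, 47.2 and 39.9 RPKM in controls (-0.17, adjusted p = 0.714). Gbp3 was at 19.2 RPKM in both MycKO libraries, against 16.2, 18.8 and 19.3 RPKM in controls. None of the 4 GBP genes had MycKO 5 and control 2 as its highest pair.

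The IRG genes had positive fold changes and overlapping groups. Igtp (chromosome 11, 58199556 to 58207591, plus strand), which encodes Irgm3, a regulatory IRG protein of host membranes, was at 44.4 and 30.002 RPKM in MycKO 5 and 6, against 23.4, 31.2 and 21.3 RPKM in controls 1, 2 and 3. Control 2 exceeded MycKO 6, and the fold change was 0.53 (SE 0.22, 95% interval 0.01 to 1.05, adjusted p = 0.374). Without MycKO 5 it was 0.26 (adjusted p = 0.841), and without MycKO 6 it was 0.81 (0.363). Irgm1, a regulatory IRG gene as well, was at 45.3 and 34.3 RPKM in MycKO, against 27.3, 38.1 and 33.2 RPKM in controls. Iigp1, which encodes the effector Irga6, was low, at 2.23 and 4.75 RPKM in MycKO, against 0.723, 2.31 and 1.10 RPKM in controls (0.91, adjusted p = 0.434). Among the 7 genes of this group, MycKO 5 was above MycKO 6 for 3.

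Set against each other by library, the groups of members had unequal medians in MycKO 5 and near-equal ones elsewhere. For each gene the deviation of log2(RPKM + 1) from the mean of the 3 controls was taken. The median deviation of the 28 type I-led genes was 0.46 in MycKO 5 and 0.13 in MycKO 6, against -0.16, 0.19 and -0.04 in controls 1, 2 and 3. That of the 7 interferon-gamma-led genes was 0.13 and 0.085 in MycKO, against -0.13, 0.18 and 0.003 in controls. In MycKO 5 the interferon-gamma-led median minus the type I-led one was -0.326, while in the other 4 libraries the difference lay between -0.043 and 0.041. The 2 families of the interferon-gamma-led group were unlike in MycKO 5. There Gbp2, Gbp3, Gbp4 and Gbp7 deviated by -0.36, 0.089, 0.13 and -0.25. The IRG genes Igtp, Irgm1 and Iigp1 deviated by 0.81, 0.46 and 0.50, none of them below the type I-led median. All 28 type I-led genes were above the control mean in MycKO 5, against 19 in MycKO 6, 21 in control 2, 13 in control 3 and 6 in control 1. Over all 11190 genes, 6229 were above it in MycKO 5 and 6430 in MycKO 6, against 5612 in control 2. The 28 and the 19 include Ifi44, whose direction in MycKO was fixed by the way it passed the filter. Over the whole comparison, the median fold change was 0.29 for the type I-led and 0.27 for the interferon-gamma-led genes, beside 0.048 for all genes tested, and the difference of these medians was -0.028. Without MycKO 5 the type I-led and interferon-gamma-led medians were 0.13 and 0.085. Without MycKO 6 they were 0.46 and 0.13, and their difference was -0.326. Without control 1 the interferon-gamma-led median was 0.14. The difference was -0.073 without control 1, -0.078 without control 2, -0.043 without MycKO 5 and 0.023 without control 3.

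**Figure D3:**
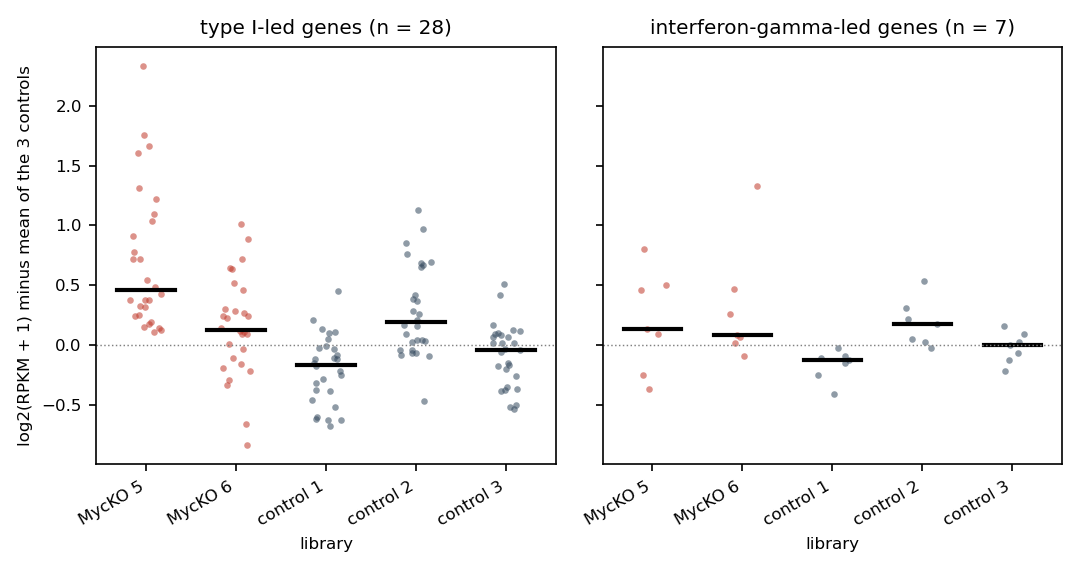
Deviation of log2(RPKM + 1) from the mean of the 3 controls for each type I-led gene (left, n = 28) and each interferon-gamma-led gene (right, n = 7), by library, MycKO in red and control in dark, with a black line at the median. The type I-led median is 0.46 in MycKO 5 and 0.19 in control 2, and the interferon-gamma-led median is 0.13 and 0.18 in these libraries.

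The libraries of each group were also unequal among themselves. MycKO 5 was above MycKO 6 for 27 of 28 type I-led genes, against 49.9% of all genes tested. The highest 2 libraries were MycKO 5 and control 2 for 13 of 28 type I-led and 2 of 7 interferon-gamma-led genes, against 12.5% of all genes. Control 2 was the highest control for 16 and 5 of these genes, against 37.0% of all genes, and both held for 15 and 2, against 21.5%. In the wider list of 49 tested genes led by type I interferon, given below, the order was weaker in part. There MycKO 5 was above MycKO 6 for 29 genes (59.2%), and MycKO 5 and control 2 were the highest pair for 12 (24.5%). Control 2 was the highest control for 27 of them (55.1%), a share near that of the type I-led members (57.1%). It was the highest control with MycKO 5 above MycKO 6 for 20 (40.8%). This order was chosen after the values were seen, carries no test, and the genes share the same 5 libraries. Level moved with it. The 13 type I-led genes with a mean under 10 RPKM had a median deviation of 1.04 in MycKO 5 and 0.65 in control 2, and the 15 with a mean of at least 10 RPKM had 0.32 and 0.046. The 1.04 in MycKO 5 was the value of Ifi44, whose direction was fixed by the way it passed the filter. The median range over the 5 libraries was 0.89 for type I-led genes, 0.60 for interferon-gamma-led genes and 0.65 for all genes tested, on the log2(RPKM + 1) scale. With a mean of at least 10 RPKM it was 0.61 for type I-led genes and 0.48 for all genes, and under 10 RPKM it was 1.5 and 1.04. The 1.5 was again the value of Ifi44. Genes of mitosis (20 of 20 listed) had the same libraries as their highest pair, and summed to 240.9 and 106.9 RPKM in MycKO 5 and 6, against 59.5, 311.9 and 59.3 RPKM in controls 1, 2 and 3. Their part and that of the other cells in the order of the libraries was not tested. Of the 14 members with ISRE letters upstream, 7 had MycKO 5 and control 2 as their highest pair, and of the 12 members whose window held none, 6 did.

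**Figure D4:**
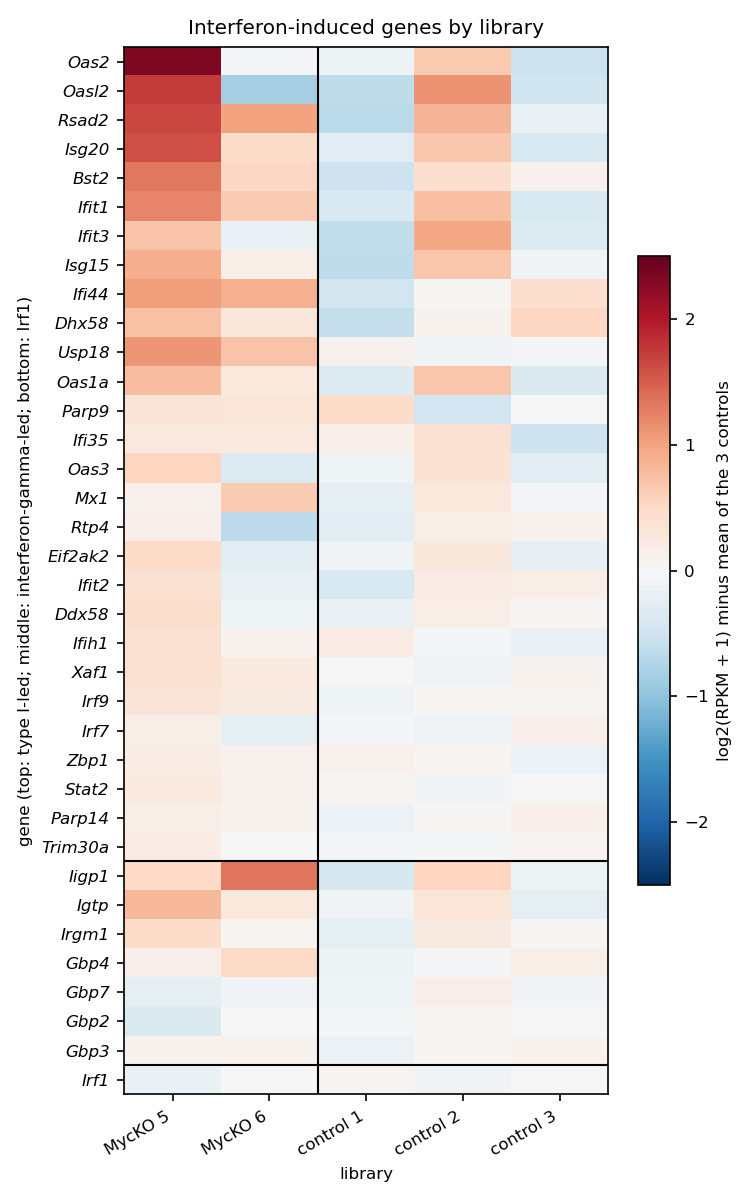
Deviation of log2(RPKM + 1) from the mean of the 3 controls for the 36 members (rows, by group and, within a group, by range) in the 5 libraries (columns, MycKO left of control). Red is above and blue below the control mean, and the rows with the widest range, Oas2, Oasl2, Rsad2 and Isg20, are reddest in MycKO 5, followed by control 2 for Oas2, Oasl2 and Isg20 and by MycKO 6 for Rsad2.

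Other genes of the interferon pathway were called at shares that are read against the same background, 1.34% of all genes for limma, 2.07% for limma-voom and 3.4% for the authors' deposited table. Of 17 genes of receptors, kinases, transcription factors and inhibitors, 1 was higher over all genes tested and 0 were lower. It was Ifngr2, which encodes the signalling chain of the interferon-gamma receptor, at 13.8 and 9.85 RPKM in MycKO 5 and 6, against 2.05, 1.76 and 0.946 RPKM in controls 1, 2 and 3 (log2 fold change 2.32, SE 0.33, limma adjusted p = 0.0263). The call was lost without control 1 (2.45, adjusted p = 0.0689), control 3 (2.13, 0.0775), MycKO 5 (2.10, 0.305) or MycKO 6 (2.54, 0.187). Macrophages express Ifngr2 as well, and the markers of macrophages, monocytes and neutrophils were higher in both MycKO libraries. The part of these cells in the value of Ifngr2 was not tested. Jak1, the kinase shared by both receptors, was at 331.5 and 403.2 RPKM in MycKO, against 455.7, 465.4 and 467.6 RPKM in controls, without overlap (-0.34, adjusted p = 0.254). Irf5 (0.99, adjusted p = 0.207) and the inhibitor gene Socs3 (0.89, adjusted p = 0.218) had the next smallest p-values after Ifngr2, ahead of Jak1. Of 7 interferon genes listed, 1 was in the table, Ifng, at 41.5 and 51.3 RPKM in MycKO, against 60.7, 46.3 and 62.8 RPKM in controls (-0.28, adjusted p = 0.595).

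A further set of interferon-induced genes was taken from wider lists. Of 49 tested genes led by type I interferon, 0 passed limma. Limma-voom called 1 of them, Ly6e (0.52, adjusted p = 0.0404), which was at 275.1 and 243.7 RPKM in MycKO 5 and 6, against 187.9, 193.8 and 154.0 RPKM in controls 1, 2 and 3. The authors' deposited table called 3 of 52, Slfn1 (1.87, adjusted p = 0.0299), Ifitm3 (2.21, adjusted p = 0.00567) and Slfn5, which was named after its value was seen. Ifitm3 encodes a membrane protein that hinders the entry of viruses. Ifitm3 was at 110.9 and 28.1 RPKM in MycKO, against 19.3, 17.4 and 6.15 RPKM in controls. The median fold change of these 49 genes was 0.11, beside 0.048 for all genes tested. Of 20 tested genes led by interferon-gamma, 1 was higher in MycKO, the macrophage Fc receptor gene Fcgr1, at 13.3 and 6.31 RPKM, against 1.39, 1.78 and 1.14 RPKM in controls (2.08, limma adjusted p = 0.0484). The call was lost without control 1 (2.07, adjusted p = 0.145), control 3 (1.99, 0.151), MycKO 5 (1.60, 0.35) or MycKO 6 (2.57, 0.147), and under both scalings and in 4 further alternatives (adjusted p 0.053 to 0.0744). Limma-voom called 0 of the 20, and the authors' deposited table called 2 of 24, Fcgr1 (2.71, adjusted p = 0.000344) and Ciita (1.68, adjusted p = 0.0182), the master regulator gene of MHC class II. Ciita was at 5.25 and 3.43 RPKM in MycKO, against 1.44, 1.10 and 1.34 RPKM in controls, without overlap (limma 1.20, adjusted p = 0.159). The chemokine genes Cxcl10 (12.8 and 9.54 RPKM in MycKO, against 3.32, 3.97 and 2.61 RPKM in controls) and Cxcl9 (5.49 and 4.77 RPKM, against 1.19, 0 and 1.40 RPKM) did not overlap between the groups and had adjusted p-values of 0.0532 and 0.127. The median fold change of the 20 genes led by interferon-gamma was 0.31, with 17 above 0 and 3 below. Both MycKO libraries lay above all controls for 10 of the 20, against 18.8% of all genes, and below all of them for 0. Of 9 sensors and adaptors upstream of type I interferon, 0 passed limma, and the endosomal RNA sensor gene Tlr7, at 14.2 and 9.27 RPKM in MycKO, against 3.08, 3.81 and 1.97 RPKM in controls, had an adjusted p of 0.0585. Tlr7 passed in limma-voom (1.84, adjusted p = 0.0143) and in the authors' deposited table. Macrophages are known to express Fcgr1, Cxcl9, Cxcl10 and Tlr7, and their part in these values was not tested.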

How the data were processed

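RNA from NK cells of the spleen was sequenced in 2 MycKO and 3 control samples as single reads from strand-specific dUTP libraries, per the labels' protocols. Per the submitters' processing notes, TopHat and edgeR were used, named without a role, and the build was mm10. The sources used here name no version, annotation, counting tool or strand setting, so overlapping genes may share reads. Per the file headers, the deposited table gives a value per sample, read here as RPKM, the authors' mean signal per group, their ratio (fold change) with its log2 value, and their p-value and adjusted p-value, from a test that is not named.

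RPKM values were analysed as log2(RPKM + 1) with limma 3.58.1 in R 4.3.3 and a variance trend over all 5 samples (3 residual and 4.41 prior degrees of freedom). The filter asked for 1 RPKM or more in 2 samples or more, which left 11190 genes. Tests were two-sided, with Benjamini-Hochberg adjustment over all genes tested and a threshold of 0.05. Fold changes on this scale understate those of low genes. Reads were worked out from RPKM values and group means, and 100% of values came out whole within 0.01 of a read. No pair of libraries agreed within counting noise (chi-square per degree of freedom of at least 17.5). The procedure was run on simulated counts with the same dispersion for all genes and no differences between libraries beyond depth and the changed genes. That run therefore does not show how the test behaves where libraries differ in other ways. Positions are from GENCODE vM21 on GRCm38 (35 of 36 members, matched by Entrez ID), and promoters are from RefSeq. Figures used matplotlib 3.10.9.

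The members and lists were chosen with earlier results of these data known, so no list has a test. Values in every sample were planned for members past the threshold, the 3 smallest p of each group, the 3 most abundant and Irf1, and for the 4 smallest p of each other list with Ifng. Results that rest on some other genes are not reported here. Values of the other members, the order of the libraries and the mitosis list were chosen after values were seen. Alternatives were 2 scalings, no filter, 5 CPM as the filter, a pseudocount of 0.1, no variance trend, limma-voom, the authors' test, and leaving out each sample.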

Additional observations from a re-analysis of the deposited data

How the results depend on the processing

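No member passed an adjusted p of 0.05 under any of the 13 alternatives, and the lowest was 0.0981, for Usp18. The number of all genes called was 150, against 80 with a pseudocount of 0.1, 232 in limma-voom, 442 in the authors' deposited test, and 0 to 215 without 1 replicate, with 0 without either MycKO library, where the lone library is assumed to vary like the controls. The median fold change of the interferon-gamma-led genes was 0.085 to 0.287 without 1 replicate, against 0.27, and its difference from the type I-led median was -0.326 to 0.023, the lowest without MycKO 6. No member changed sign under a scaling, which lowered the median of all genes by 0.049 or 0.042. In limma-voom, Ifit2 turned to -0.022, Oas3 to -0.19, Oasl2 to -0.42 and Eif2ak2 to -0.068. Without 1 replicate, 12 members turned sign in at least 1 case, and ranges were -0.19 to 0.38 for Ifit2, -0.16 to 0.76 for Ifit3, -0.16 to 0.0067 for Irf1, -0.22 to 0.15 for Irf7, -0.032 to 2.33 for Oas2, -0.34 to 0.55 for Oas3, -0.84 to 1.75 for Oasl2, -0.66 to 0.13 for Rtp4, -0.36 to 0.013 for Gbp2, -0.012 to 0.44 for Ifi35, -0.11 to 0.43 for Ddx58 and -0.29 to 0.49 for Eif2ak2. In none of these did a value pass the test, and the cause was not tested. No paired analysis was possible because the groups share no replicate number. Low reads limit Ifi44, Oas2, Isg20, Iigp1 and Rsad2, with the fewest reads in a control for each of them.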
